A study of Mus musculus with 7 samples.

Results

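The Ms4a genes encode small proteins that cross the membrane several times and sit in the plasma membrane or in endosomes of blood and tissue cells. The best known are CD20 (Ms4a1), the surface marker of B cells, and the beta chain of the high-affinity IgE receptor (Ms4a2) of mast cells and basophils. Other members are known from monocytes and macrophages, where some partner with receptors at the cell surface. In the mouse the genes lie side by side on chromosome 19. The 10 genes described here are Ms4a3, Ms4a4a, Ms4a4b, Ms4a4c, Ms4a6b, Ms4a6c, Ms4a6d, Ms4a7, Ms4a8a and Ms4a14, of 20 Ms4a genes and 30184 genes with a value on the array. They were chosen with earlier results of these data known and taken by name, and each has 1 probe set that carries its symbol alone.

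RNA came from F4/80+ sorted CD11b+ macrophages of C57BL/6 mice, drawn from polyvinyl alcohol sponges that had lain under the skin of the back for 3 days (d3) or 7 days (d7). The study's methods give mice of both sexes, 8 to 10 weeks old, with no transgene or treatment named for these samples, and the sources used here do not say whether mice were pooled. There were 3 d3 samples (replicates 1, 3 and 4) and 4 d7 samples (replicates 5, 6, 7 and 8), each called a biological replicate and each on 1 Affymetrix Mouse Transcriptome array. Values are levels on a log2 scale, so that a difference of 1 is a doubling in signal. A level of 5.39, the highest that any background probe reached on any array, is called the array background, and 70.0% of the 65956 probe sets tested had a mean at or under it.

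Between d3 and d7, none of the 10 genes passed the test across all probe sets, and the smallest adjusted p was 0.0983 from limma (Ms4a6b). In all, 77 of 65956 probe sets passed (0.117%). The arrays of the days stood apart for 7 of the 10 genes. All d7 arrays lay above all d3 arrays for Ms4a4a and Ms4a14, and below them for Ms4a4b, Ms4a4c, Ms4a6b, Ms4a6c and Ms4a8a. Among the 19774 probe sets above the array background, 6.55% had all d7 arrays above and 8.03% all d7 arrays below those of d3. At an unadjusted p under 0.05 from limma the same 7 genes passed, against 7.66% of all probe sets and 17.6% of those above the background. Of all 20 Ms4a genes, 2 were higher and 6 lower at that limit. Since the 10 were chosen with earlier results known, these counts describe them and carry no test. The largest difference was that of Ms4a4c, 2.01-fold lower on d7, and Ms4a4a was 1.68-fold higher. Ms4a6d and Ms4a7 lay above the background with overlapping or tied arrays, and Ms4a3 was at the background on every array. The median difference over the 10 genes was -0.12 on the log2 scale, against -0.00092 over all probe sets.

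**Figure D1:**
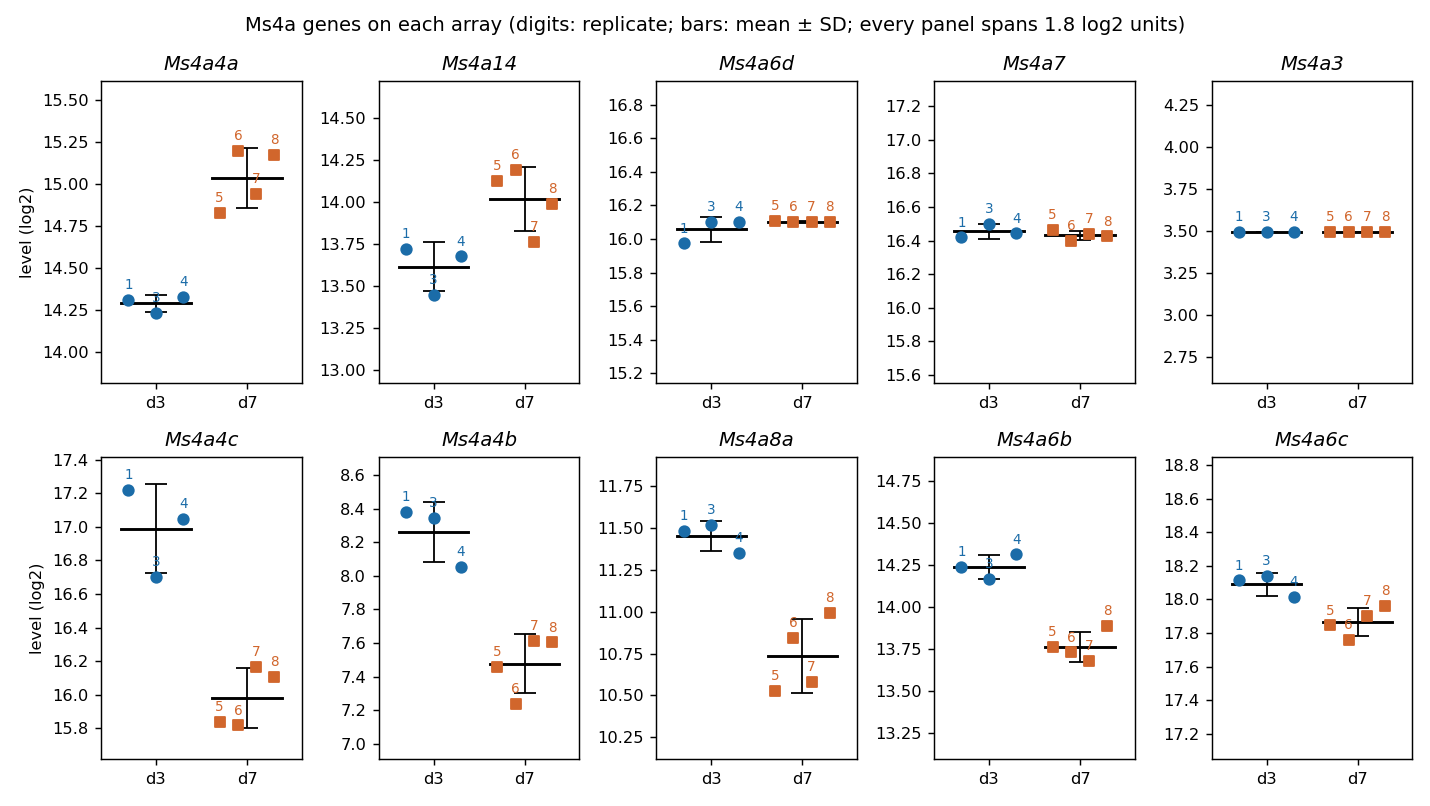
Level on the log2 scale (vertical axis) of the 10 Ms4a genes on each d3 array (circles) and d7 array (squares). Digits are replicate numbers, thick lines are means, error bars are SD (n = 3 on d3, n = 4 on d7), and each panel has its own range of equal height. For 7 genes no d3 point lies level with a d7 point.

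Ms4a4c, Ms4a4b, Ms4a6c and Ms4a6b lie next to each other on chromosome 19 and all had lower values on d7. A stretch before 1 start site of each is shown because these fall into 2 look-alike pairs. That of Ms4a4c lies inside the gene, which RefSeq starts at 11404717. That of Ms4a6c ends inside its gene, which starts at 11469353. The sequences are from RefSeq (GRCm38.p6, plus strand), 250 bases before a start site of each gene, 5′ to 3′. Capitals mark the longest run of bases that the pair has in common.
Ms4a6b, chr19:11518309-11518558: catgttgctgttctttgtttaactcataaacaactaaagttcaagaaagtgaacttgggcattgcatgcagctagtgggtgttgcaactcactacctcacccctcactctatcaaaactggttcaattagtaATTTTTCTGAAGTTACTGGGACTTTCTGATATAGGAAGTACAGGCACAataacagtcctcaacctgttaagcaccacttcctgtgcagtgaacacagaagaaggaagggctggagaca
Ms4a6c, chr19:11469118-11469367: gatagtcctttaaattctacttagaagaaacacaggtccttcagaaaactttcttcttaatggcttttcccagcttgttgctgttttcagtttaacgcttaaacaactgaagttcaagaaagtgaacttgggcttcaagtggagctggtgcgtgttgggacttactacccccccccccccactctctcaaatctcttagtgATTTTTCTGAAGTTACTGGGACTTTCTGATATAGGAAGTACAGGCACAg
Ms4a4b, chr19:11443308-11443557: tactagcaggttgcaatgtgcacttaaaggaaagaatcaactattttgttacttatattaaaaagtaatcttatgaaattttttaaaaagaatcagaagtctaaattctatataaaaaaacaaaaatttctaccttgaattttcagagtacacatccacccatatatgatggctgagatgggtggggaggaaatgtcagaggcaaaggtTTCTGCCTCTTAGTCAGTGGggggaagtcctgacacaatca
Ms4a4c, chr19:11407411-11407660: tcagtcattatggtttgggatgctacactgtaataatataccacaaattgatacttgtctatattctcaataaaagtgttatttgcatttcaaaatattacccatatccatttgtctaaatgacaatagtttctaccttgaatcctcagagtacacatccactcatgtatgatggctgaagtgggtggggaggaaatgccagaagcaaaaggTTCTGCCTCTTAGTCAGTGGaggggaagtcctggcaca

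The run of 48 bases common to Ms4a6b and Ms4a6c ended 70 bases before the start site in Ms4a6b and 1 base before it in Ms4a6c. It occurred in only 2 of the 32851 promoter windows of 300 bases in the table (250 before and 50 after a start site), these 2. Around it, the windows of both genes aligned over 234 columns, of which 193 were identical (82.5%). The windows of Ms4a4b and Ms4a4c aligned over 178 columns with 159 identical (89.3%), and their longest common run was 20 bases, again in no other window. No other of the 44 pairs of member windows compared had a common run of over 12 bases. Windows were held for 9 of the 10 genes (Ms4a7 has 2), and Ms4a6d had none. Ms4a4a, which lies next to Ms4a4c on the same strand and had higher values on d7, shared no such stretch with either pair. Nor did Ms4a8a, which had lower values on d7. Whether these stretches bear on the differences between days was not tested.

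Short motifs were searched on both strands of these windows, after their sequences had been seen. GGAAGT, the core bound by ETS family factors such as PU.1 of myeloid cells, was in the windows of Ms4a3, Ms4a4b, Ms4a4c, Ms4a6b, Ms4a6c and Ms4a7, and in 23.8% of all windows. GAAANNGAA, the core of the interferon response element, was in the windows of Ms4a6b, Ms4a6c and Ms4a7, and in 8.56% of all windows. GGGACTTTC, an element of the NF-kB type, was in those of Ms4a6b and Ms4a6c alone among the members, inside the capitals above, and in 0.353% of all windows. TGANTCA, the AP-1 element, was in those of Ms4a4b, Ms4a7, Ms4a8a and Ms4a14, and in 7.81% of all windows. Motif matches did not overlap one another in the windows of Ms4a6b and Ms4a6c. A match says only that these letters stand there.

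Ms4a4c is a gene of monocytes and macrophages that interferon is known to induce in mice. Its levels were 17.22, 16.70 and 17.05 on d3 replicates 1, 3 and 4. On d7 replicates 5, 6, 7 and 8 they were 15.84, 15.82, 16.16 and 16.10. Every d7 array was thus lower than every d3 array, with a gap of 0.53 between the nearest arrays of the days and a range of 0.52 within d3. The means were 16.99 ± 0.26 (SD, n = 3) and 15.98 ± 0.18 (SD, n = 4), a log2 difference of -1.01 (95% confidence interval -1.39 to -0.62, adjusted p = 0.165 from limma). In bulk samples, fewer cells that express a gene and less RNA of it per cell cannot be told apart.

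Ms4a4b, known from T cells, where its protein associates with the costimulatory receptor GITR in the mouse, lay above the background on every array. Its levels were 8.38, 8.34 and 8.05 on d3 against 7.46, 7.24, 7.61 and 7.60 on d7. The d7 arrays were again all lower, by 0.44 between the nearest arrays. The difference was -0.78 (95% confidence interval -1.10 to -0.47, adjusted p = 0.183 from limma), which is 1.72-fold. Of the 12 T and NK cell markers listed, 10 were measured, and none of them lay above the array background on either day. Cd3d and Cd3e, chains of the T cell receptor complex, had 4.06 and 3.74 on every array. The summed level of these markers was 7.54 to 7.62 on d3 and 7.59 to 7.66 on d7. Cd4, under the background, had means of 4.47 and 4.84, with every d7 array above every d3 array. Its unadjusted p was 0.00898 and its adjusted p 0.472, both from limma. Signal at the background cannot show a fall, and the part of T cells in the values of Ms4a4b was not tested.

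Ms4a6b and Ms4a6c are expressed in myeloid and lymphoid cells of the mouse. Ms4a6b had 14.24, 14.17 and 14.31 on d3 against 13.76, 13.73, 13.68 and 13.89 on d7. Its spread was small on both days (SD 0.073 and 0.089), and the difference of -0.48 (95% confidence interval -0.62 to -0.33) had the smallest p of the family (unadjusted p = 0.000276, adjusted p = 0.0983, both from limma). Ms4a6c had 18.11, 18.14 and 18.01 on d3 against 17.84, 17.76, 17.90 and 17.96 on d7. Its arrays did not overlap either, but by a gap of only 0.055, and its difference was -0.22 (95% confidence interval -0.36 to -0.08, adjusted p = 0.462 from limma). Ms4a6b and Ms4a6c, like Ms4a4b and Ms4a4c, are closely related genes, and how far their probes read each other's RNA was not tested.

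Ms4a6d, the third gene of that subgroup with a value, did not share the pattern. It was 15.97 on d3 replicate 1, 16.11 on d7 replicate 5 and 16.10 on the other 5 arrays, where the deposited value was identical. The means were 16.06 ± 0.07 (SD, n = 3) and 16.10 ± 0.004 (SD, n = 4), a difference of 0.04 (95% confidence interval -0.04 to 0.13, adjusted p = 0.662 from limma). With 3 different values on 7 arrays, its SD rests on few distinct values, and the source of the identical values was not tested. The other 8 members above the background had 7 different values each.

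Ms4a8a, known in mice from alternatively activated macrophages and from tumours, had 11.48, 11.52 and 11.35 on d3. On d7 it had 10.53, 10.84, 10.58 and 10.99. The days did not overlap, and the d7 arrays spread over 0.46. The difference was -0.71, or 1.64-fold lower on d7 (95% confidence interval -1.03 to -0.39, adjusted p = 0.227 from limma). Of 11 genes of alternative activation measured, Mrc1 (the mannose receptor) and Il4ra (the IL-4 receptor alpha chain) rose, by 1.42 and 1.56 on the log2 scale (adjusted p = 0.0263 and 0.048 from limma), and none passed in the other direction (median log2 difference 0.15). Of the 11, 8 had a higher mean on d7 and 3 a lower one, against 28943 and 33259 of all 65956 probe sets. Retnla and Ccl24, both induced by IL-4 in mouse macrophages, had differences of -1.09 and -1.30 with every d7 array below every d3 array (unadjusted p = 0.015 and 0.021, adjusted p = 0.589 and 0.638, from limma). Stab1 and Clec10a went the other way, by 0.72 and 0.43, with every d7 array above every d3 array (unadjusted p = 0.0096 and 0.051, adjusted p = 0.484 and 0.647, from limma).

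Ms4a4a, a surface protein of macrophages that associates with the beta-glucan receptor dectin-1, had 14.31, 14.23 and 14.33 on d3 against 14.83, 15.19, 14.94 and 15.17 on d7. The d3 arrays lay within 0.098 of each other, and the lowest d7 array was 0.50 above the highest of them. The means were 14.29 ± 0.05 (SD, n = 3) and 15.03 ± 0.18 (SD, n = 4), a difference of 0.75 (95% confidence interval 0.49 to 1.00, adjusted p = 0.124 from limma). Ms4a14, a little studied member, had 13.72, 13.45 and 13.67 on d3 against 14.12, 14.19, 13.76 and 13.98 on d7. Its lowest d7 array, replicate 7, was only 0.042 above the highest d3 array, and the difference was 0.40 (95% confidence interval 0.09 to 0.71, adjusted p = 0.629 from limma).

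Ms4a7, a gene of macrophages and other mature mononuclear phagocytes, was nearly level. It had 16.42, 16.50 and 16.44 on d3 against 16.46, 16.40, 16.44 and 16.42 on d7. The difference was -0.02 (95% confidence interval -0.09 to 0.04, adjusted p = 0.735 from limma), so that at this spread a difference beyond 0.09 in size lay outside the interval. It turned to 0.02 after quantile normalization and to 0.001 without d3 replicate 3. Ms4a3, a gene of granulocyte and monocyte progenitors in the bone marrow that is used there for fate mapping, had 3.49 on all 7 arrays and was thus at the background. So were the other 4 of 5 progenitor markers on both days, among them the granule enzymes Mpo (3.60 on every array) and Elane (means 3.65 and 3.67).

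**Figure D2:**
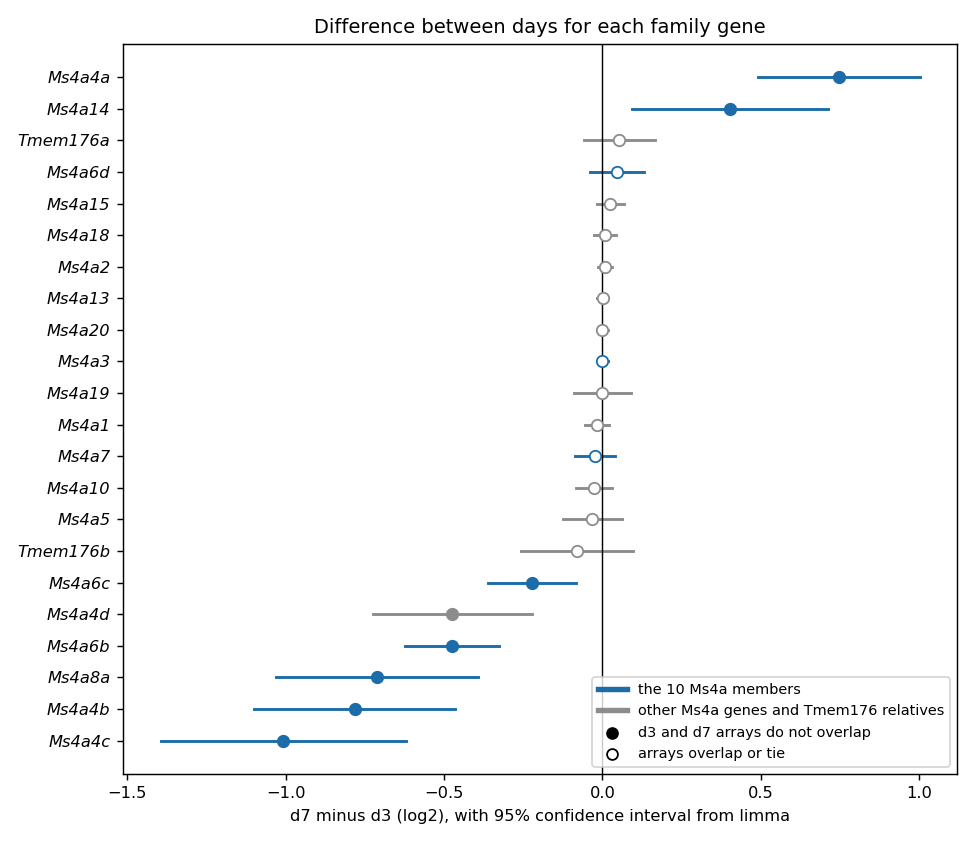
Difference between days (d7 minus d3, log2, horizontal axis) with its 95% confidence interval from limma for 20 Ms4a genes and 2 relatives. Filled points mark genes whose d3 and d7 arrays do not overlap; Ms4a4a and Ms4a14 lie to the right of 0, and Ms4a4b, Ms4a4c, Ms4a4d, Ms4a6b, Ms4a6c and Ms4a8a to the left.

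Within each array, the level of one member can be set against that of another to leave out any scaling common to the array. Only the change of this difference with the day is read, since levels of different probe sets are not comparable. Ms4a4a minus Ms4a4c was -2.91, -2.47 and -2.72 on d3 against -1.01, -0.62, -1.22 and -0.93 on d7. It was thus higher on every d7 array, by 1.75 in the mean, the size of the 2 opposite differences together. Ms4a4a minus Ms4a6b was 0.07, 0.06 and 0.01 on d3 against 1.07, 1.46, 1.26 and 1.29 on d7, a mean change of 1.22. Ms4a6d minus Ms4a6b, between genes of the same subgroup, changed by 0.52 with no overlap of the days, whereas Ms4a4b minus Ms4a4c changed by 0.22 with overlapping arrays. These genes were chosen with their differences known, so the values describe these arrays and carry no test.

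The family spans 679 kb of chromosome 19 (GRCm38.p6, 10962289 to 11640851), where RefSeq places 21 Ms4a genes and 1 protein-coding gene of another kind. Ms4a12 has no value here. From Ms4a14 to Ms4a6d, the 9 genes in a row include 8 of the 10 members and Ms4a4d, and 8 of these 9 were above the background on both days. On the flanks, only Ms4a8a was above it. Along that row, Ms4a14 and Ms4a4a had higher d7 values, with Ms4a7 between them, and the 5 genes that follow on the plus strand (Ms4a4c, Ms4a4b, Ms4a6c, Ms4a6b and Ms4a4d) all had lower ones. Ms4a4d crossed the background, with a mean of 5.69 ± 0.18 on d3 and 5.22 ± 0.11 on d7 (adjusted p = 0.319 from limma), so the size of its difference is uncertain.

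**Figure D3:**
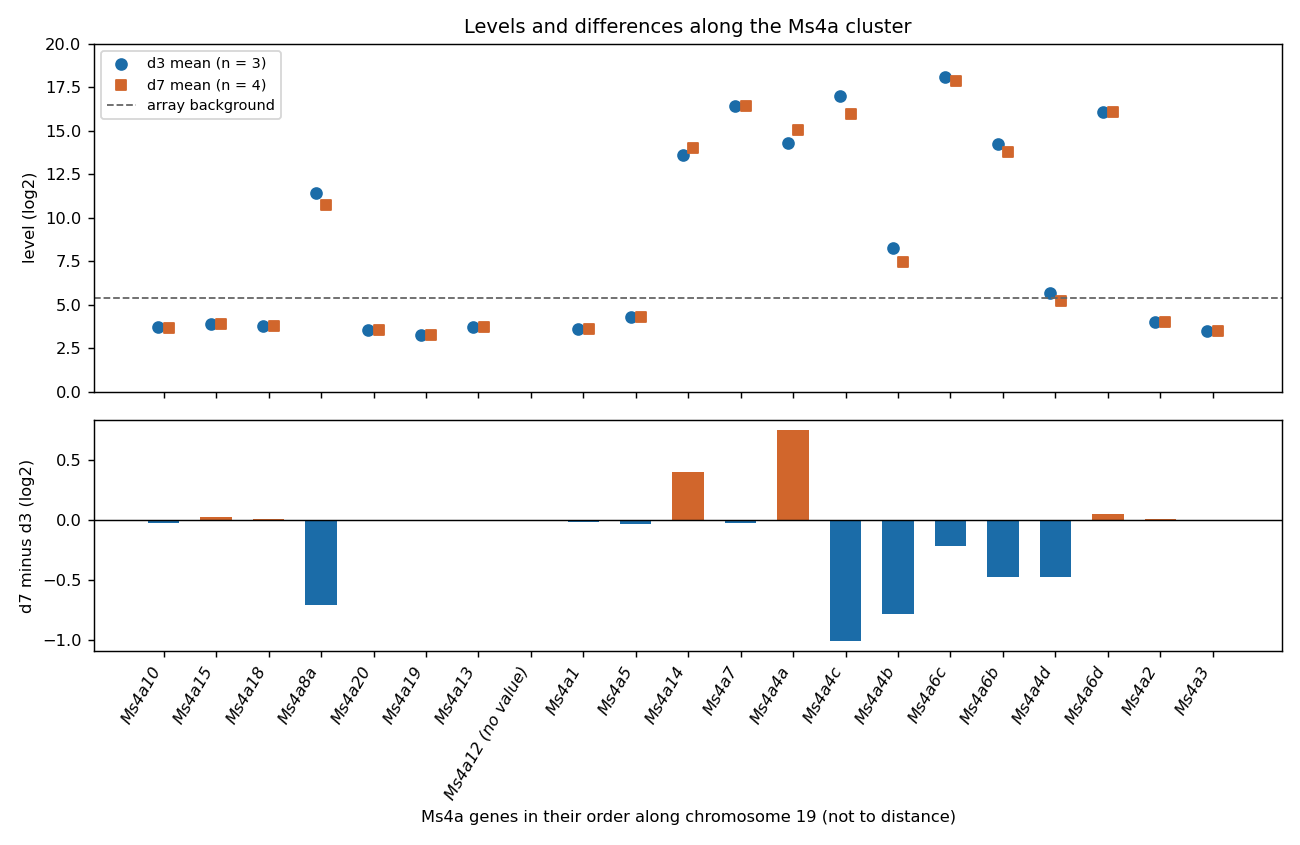
Mean level (top, log2) and difference d7 minus d3 (bottom, log2) of the Ms4a genes in their order along chromosome 19; circles are d3 means (n = 3), squares d7 means (n = 4), and the dashed line is the array background of 5.39. Genes above the line are grouped from Ms4a14 to Ms4a6d, and 5 genes in a row from Ms4a4c to Ms4a4d have negative bars.

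Of the other 10 Ms4a genes, 9 lay at or under the array background on d3 and d7 and none passed the test (1 at an unadjusted p under 0.05, Ms4a4d). Ms4a1, the B cell gene CD20, had means of 3.61 and 3.59, and Ms4a2, the IgE receptor beta chain, had 3.99 and 4.00. Ms4a5, Ms4a10, Ms4a13, Ms4a15, Ms4a18, Ms4a19 and Ms4a20 lay between 3.29 and 4.31 in their means. Tmem176a and Tmem176b, distant relatives of the family on chromosome 6 known from dendritic cells and macrophages, were above the background. Tmem176a had 8.32 ± 0.08 and 8.37 ± 0.05, and Tmem176b had 12.15 ± 0.05 and 12.07 ± 0.12 (adjusted p = 0.666 and 0.678 from limma).

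Of 10 genes whose proteins have been described with Ms4a proteins or with other membrane proteins of that kind, none passed the test in limma. At an unadjusted p under 0.05 from limma were 4 (Trem2, Cd81 and Cd9 higher, Cdkn3 lower), and the arrays of Cd9 and Cdkn3 overlapped. That limit was met by 7.66% of all probe sets and 17.6% of those above the background, where 8 of the 10 lay. Clec7a, which encodes dectin-1, the partner of Ms4a4a, had 13.84, 14.16 and 13.31 on d3 against 13.82, 13.78, 13.58 and 13.38 on d7, so its arrays overlapped where those of Ms4a4a did not. Trem2, a lipid-sensing receptor of macrophages whose shed form has been tied to MS4A4A in humans, had 9.72, 9.77 and 9.96 on d3 against 10.30, 10.13, 10.42 and 10.22 on d7 (adjusted p = 0.273). It thus lay higher on every d7 array, by 0.45 in the mean. Tyrobp, the adaptor of Trem2, had means of 17.37 ± 0.12 and 17.28 ± 0.06. Cd81 and Cd9 encode tetraspanins, which organise the cell membrane, and had differences of 0.66 and 0.48 (adjusted p = 0.328 and 0.647). Fcer1g, the common signalling chain of Fc receptors, had 15.31 ± 0.52 and 14.82 ± 0.11, with d3 replicate 3 highest at 15.90. Fcer1a, the IgE-binding chain that pairs with Ms4a2, and Tnfrsf18, which encodes GITR, the partner of Ms4a4b, were at the background at 3.72 and 4.39. Cdkn3 and Cdk2, a cell cycle phosphatase bound by the human form of Ms4a3 and the kinase it acts on, had differences of -0.39 and 0.09 (adjusted p = 0.647 and 0.713).

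The labelled cell type was checked against markers. All 9 macrophage markers measured were above the background, with Adgre1 (F4/80) at 16.84 and 16.85 and Itgam (CD11b) at 17.13 and 17.10 in the d3 and d7 means. None of them passed, nor did any of 7 B cell markers (Cd79a 3.89 and 3.88, Cd79b 6.32 and 6.40), 9 mast cell and basophil markers (Fcer1a as above, Cpa3 3.66 and 3.71), 7 fibroblast markers (Col1a1 4.63 and Col1a2 4.10 on both days) or 7 dendritic cell markers (Flt3 3.62 and 3.60, Zbtb46 3.57 and 3.59). At or under the background on both days were all 9 mast cell and basophil and all 7 fibroblast markers. So were 5 of the 7 B cell and 6 of the 7 dendritic cell markers. Signal at the background cannot show a fall, so for these markers not passing is no sign of an unchanged level. Of 10 neutrophil markers, Retnlg, a secreted protein of neutrophils, fell from a mean of 11.21 to 6.36 (adjusted p = 0.0432 from limma) and none rose. S100a8 had means of 10.52 and 10.66 and S100a9 of 9.35 and 9.49. Their d7 means were raised by replicate 6, at 12.06 and 10.95, against 9.76 to 10.62 and 8.68 to 9.33 on the other d7 arrays. Mmp8 had a difference of -1.10 with every d7 array below every d3 array (adjusted p = 0.1725 from limma). The summed level of the 10 neutrophil markers was 13.74 to 14.04 on d3 and 12.90 to 13.82 on d7. Of 14 monocyte markers, 13 were lower in their d7 means. At an unadjusted p under 0.05 from limma, 8 of the 14 were lower and 1 was higher. That limit was met by 7.66% of all probe sets and 17.6% of those above the background, in both directions. Cd300e (a receptor of monocytes) fell by 2.46 (adjusted p = 0.0162 from limma), and none of the 14 passed as higher. The list's differences had a median of -0.53 on the log2 scale. Among all 65956 probe sets, d7 means were lower for 33259 and higher for 28943, and 77 passed in either direction (0.117%). The defining markers Ly6c2 and Ccr2, the receptor that brings monocytes to wounds, had differences of -2.02 and -1.07 (adjusted p = 0.0865 and 0.0852 from limma). F13a1, the A chain of coagulation factor XIII, went the other way, with every d7 array above every d3 array and a difference of 1.07 (adjusted p = 0.142 from limma). The summed signal of the 14 was 18.35 to 18.86 on d3 and 17.61 to 17.83 on d7, on the log2 scale, and is carried by the brightest probe sets, Ly6c2 and Fn1. Of 15 genes of mature macrophages, Mrc1, Gpnmb and Apoe rose, by 1.42, 2.08 and 0.38 on the log2 scale (adjusted p = 0.0263, 0.00492 and 0.0181 from limma), and none fell, with a median log2 difference of 0.45 and a summed level of 18.86 to 19.44 on d3 and 19.87 to 19.90 on d7. Without any 1 array other than d3 replicate 1, no monocyte, neutrophil or alternative activation gene passed and 1 mature macrophage gene did. In the fit above the array background, 6 monocyte genes passed, 5 lower on d7 and 1 higher (F13a1). In that fit 2 neutrophil genes also passed, both lower, and 3 mature macrophage genes, all higher. The part of these lists in the values of the Ms4a genes was not tested.

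The test reads many probe sets at the background, and the call for 4 members changed when these were left out. Leaving them out changes the number of tests and the variance estimates together, and these were not told apart. This filtered fit was not repeated with an array left out. In a fit over only the 19774 probe sets above the array background, in which 374 passed (1.89%), Ms4a4a rose (adjusted p = 0.0309 from limma) and Ms4a6b, Ms4a4c and Ms4a4b fell (adjusted p = 0.0255, 0.0421 and 0.0468). In the same fit Ms4a8a had adjusted p = 0.0621, Ms4a6c 0.15, Ms4a14 0.209, Ms4a6d 0.491 and Ms4a7 0.652, and Ms4a3 was not in it. Among probe sets at or above the median level only Ms4a6b passed (adjusted p = 0.0442).

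**Figure D4:**
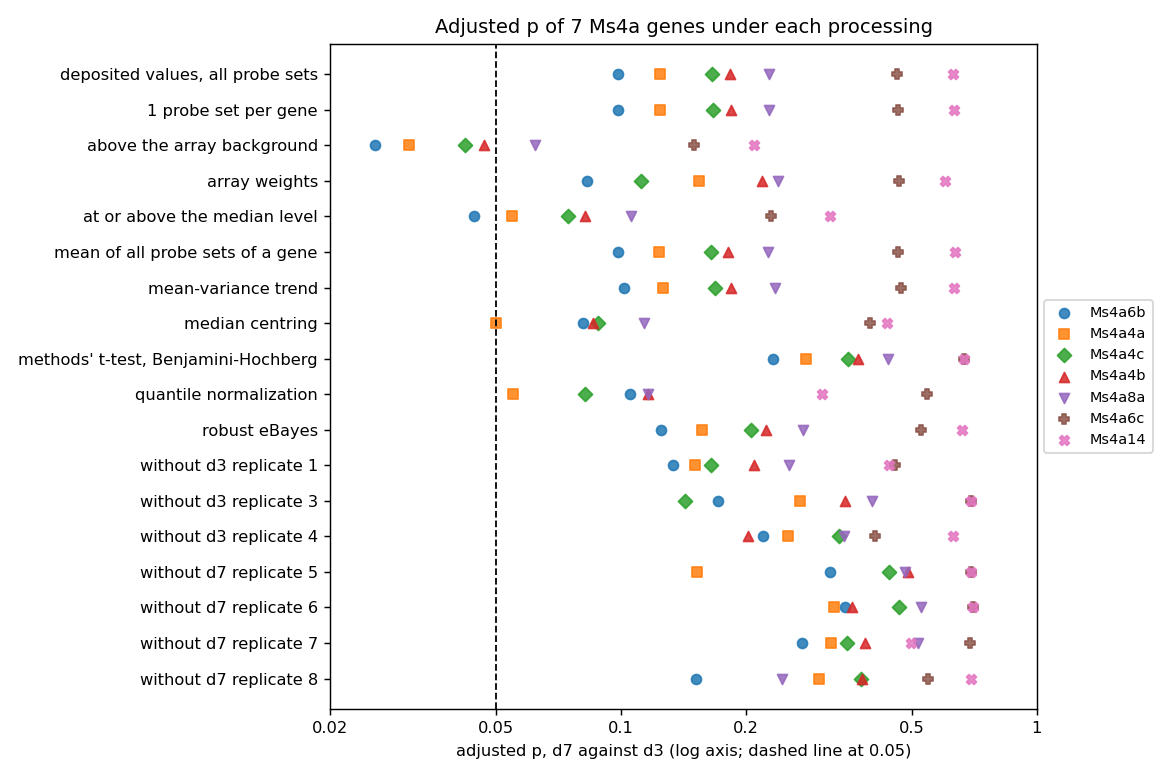
Adjusted p (horizontal log axis, dashed line at 0.05) of 7 Ms4a genes under the processing used here (top) and each alternative with adjusted p-values (rows below); the methods' t-test without adjustment is not drawn. Among these, only the fit above the array background and the one at or above the median level put points left of the line, 4 genes and 1 gene; with median centring Ms4a4a lies just right of it (0.0501).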

How the data were processed

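The deposited table holds log2 levels of 72688 probe sets on 7 arrays, made by the authors from scanned arrays. The submitters' notes name Affymetrix Expression Console, the paper's methods mention Genespring GX and dChip, and the normalization between arrays is not given in the sources used here. That the scale is log2 was read from the values. After 6732 array controls were left out, 65956 probe sets were tested. Of these, 30646 carry 1 gene symbol in the platform annotation, 2168 several and 33142 none listed, and genes were named only from the first kind. Where a gene had several, the one with the highest mean over the 7 arrays stood for it. Array medians ran from 4.14 to 4.22, and the number of arrays limits the precision.

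Days were compared (d7 minus d3) by limma 3.58.1 (R 4.3.3), fitting the day alone by lmFit with eBayes and reading it two-sided. P-values were adjusted by Benjamini-Hochberg across every probe set tested, and 0.05 was the limit for a call. A fold is 2 raised to the log2 difference. The fit was tested on simulated data, with changes of 2-fold and more only. How often it finds smaller differences, such as most of those here, was not tested. Alternatives were filters on low levels, 1 probe set per gene, averaging a gene's probe sets, robust eBayes, median centring, a trend of variance with level, quantile normalization, array weights, the methods' t-test and leaving out each array. Python 3.11.15, pandas 2.3.3, numpy 2.4.6, matplotlib 3.10.9 and Biopython 1.88 were used for tables, plots and promoter windows, which were aligned locally (match 2, mismatch -3, gap opening -5, extension -2).

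The members, the lists (monocyte, mature macrophage, alternative activation, partners of Ms4a proteins and markers of macrophages, B cells, T and NK cells, mast cells and basophils, neutrophils, progenitors, fibroblasts and dendritic cells) and the tests were chosen with earlier results of these data known. Named are all members, all other Ms4a genes and both Tmem176 genes, all partners, the first 2 measured markers of each cell type and any marker past the test, and up to 4 members of each other list past the test. Beyond this rule, Ly6c2, Ccr2, F13a1, Fn1, Retnla, Ccl24, Stab1, Clec10a, Mmp8 and Cd4 are named with their differences known. None of them passed over all probe sets. Some genes of these lists are not reported here. Nothing in the sources used here says which mice gave which sample, so p-values measure only the spread between these samples.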

Additional observations from a re-analysis of the deposited data

Results flagged for a closer look

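Among the 47 genes named above from the members, the other family genes, the partners and the first cell type markers, 11 had a d7 array far from the other d7 arrays, by Dixon's ratio of the gap to the range at the 95% critical value for 4 samples. Only d7 arrays were examined in this way, so the list says nothing of d3. Chance alone flags about 1 in 20 groups, and identical values on the other arrays make the ratio reach 1 however small the gap. Of the 10 members only Ms4a6d was among them, with 16.11 on replicate 5 against 16.10 on the others, a range of 0.0071. Replicate 5 stood apart also for Tyrobp (17.19, the others 17.30), Cd81 (7.06, the others 6.59 to 6.62) and Cd79a (3.88, the others 3.89). Replicate 6 stood apart for Ms4a1 (3.56, the others 3.60), Ms4a5 (4.18, the others 4.31 to 4.32), Tmem176b (11.89, the others 12.13 to 12.15) and Elane (3.74, the others 3.65). Replicate 8 stood apart for Ms4a15 (3.94, the others 3.89 to 3.90), Tnfrsf18 (4.37, the others 4.39) and Cd79b (6.56, the others 6.35). Among the d3 arrays, replicate 3 had the lowest array weight of all in limma, 0.407 against 0.929 to 1.375 for the others. No member passed with these weights.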

How the results depend on the processing

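No paired analysis was possible because the days share no replicate number. Over all probe sets 77 passed, against 374 above the array background, 208 at or above the median level, 223 with median centring, 169 after quantile normalization, 13 with the methods' t-test after Benjamini-Hochberg adjustment and 3652 with it unadjusted, and 1 (without d7 replicate 8) to 212 (without d3 replicate 1) with 1 array left out. Of the members none passed, against 4 above the background, 1 at or above the median level and 7 with the methods' t-test unadjusted. In that last test 1 other Ms4a gene and 2 partners (Trem2 and Cd81) passed. With 1 array left out of the fit over all probe sets, no member passed. Over the alternatives the difference of Ms4a4a ran from 0.69 to 0.82, of Ms4a14 from 0.32 to 0.49, of Ms4a4c from -1.15 to -0.89, of Ms4a4b from -0.89 to -0.70, of Ms4a8a from -0.80 to -0.64, of Ms4a6b from -0.52 to -0.42 and of Ms4a6c from -0.26 to -0.15, each with its sign kept. The difference turned in sign for Ms4a7 after quantile normalization (0.017) and, with 1 array left out, ran from -0.040 to 0.001. It turned for Ms4a1 (0.0038), Ms4a19 (0.0197) and Tnfrsf18 (0.016) with median centring, for Tnfrsf18 after quantile normalization (0.015) and for Clec7a with array weights (0.024). With 1 array left out it ran from -0.0031 to 0.0139 for Ms4a18, from -0.0267 to 0.0257 for Ms4a19, from -0.044 to 0.00203 for Ms4a5 and from -0.362 to 0.0587 for Clec7a. None of these passed in any of them, and the cause was not tested. Ms4a3 and other genes at the background have no measurable difference at this signal.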
